A study of Mus musculus with 2 samples.

Results

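The genes described are the fibroblast growth factors, their receptors and the feedback and target genes of the pathway in newborn mouse forebrain. Members were all rows of the deposited gene list whose symbol is Fgf, Fgfr, Spry or Spred followed by a digit, together with Etv1, Etv4 and Etv5, and there were 39 of 28001 rows. By role they were 15 secreted Fgf ligands, 3 endocrine ligands, 4 intracellular Fgf proteins, 4 receptors, 4 Sprouty genes, 3 Spred genes and 3 Etv transcription factors. The other 3 only share the name: Fgf2os is an antisense transcript of Fgf2, and Fgfr1op and Fgfr1op2 are named after gene fusions with Fgfr1.

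Single-cell RNA sequencing was done on 2 libraries of C57BL/6J forebrain at postnatal day 0, 1 from wild-type mice and 1 from Gmnc-/- mice. Gmnc is a gene needed for cells to become multiciliated, and the series as a whole concerns Cajal-Retzius cells with p73 and the secreted protein Reelin. Each library was a pool of 4 animals, the knockouts from 2 litters and the wild-type animals their littermates, with lateral and dorsal cortex and hippocampus taken from both sides. Which part of Gmnc the allele lacks was not known here. Gmnc itself gave 64 wild-type and 85 knockout UMIs (0.812 and 0.804 CPM), and a count at the 3′ end checks nothing about a deletion elsewhere in the gene.

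Fgf ligands bind receptor tyrosine kinases at the cell surface together with heparan sulfate, and the receptors pass the signal through Ras and the mitogen-activated kinases. The pathway switches on its own brakes, among them Sprouty, Spred and dual-specificity phosphatase genes, and the Etv factors of the Pea3 family, so the levels of these genes are widely read as a trace of signalling. In the developing forebrain the pathway is known for patterning the cortical sheet, for keeping radial glia as progenitors and for the making of glia.

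The wild-type library held 13033 barcodes and 88905819 unique molecular identifiers (UMIs, counted molecules), and the knockout library 27663 barcodes and 155482657 UMIs. After filtering, 10478 and 20836 cells were kept, with 78798226 and 105705363 UMIs. The libraries stood apart in several ways. Median depth was 5994.5 and 4466.5 UMIs per kept cell, and doublet calls took 4.21% and 20.4% of cells. Mitochondrial genes took a median of 3.29% and 1.21% of the UMIs of a barcode. Female-pattern cells numbered 7088 and 9514 against 1585 and 5350 male-pattern cells. The libraries shared 85 barcodes, 53 of them in kept cells. Cells formed 40 clusters, grouped into 16 classes that are called "-like" after marker genes, and 6 clusters stayed unnamed. Of these classes 8 had 200 or more cells in both libraries and are compared. The defining markers of cortical excitatory neurons were present, and so were those of striatal neurons, a region that the labels do not list as dissected. With 1 library per genotype there is no test and no replicate check. Every difference compares these 2 libraries and not the genotypes, animals were pooled with no mark tying a cell to its animal, and the 95% ranges in parentheses hold counting error alone. Levels are in CPM, the UMIs of a gene relative to all UMIs of the cells in question, they are compared for 1 gene at a time, and over all cells fewer cells of a type cannot be told apart from less RNA per cell.

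Over all kept cells most members stood at similar levels in both libraries, and the exceptions were in the ligands, the receptors and the Sprouty genes. Of the 39 members 30 reached 50 UMIs over both libraries and are called measured. Fgf1, Fgf3 and Fgfr4 were 1.5-fold or more higher in the knockout library, Spry1 and Spry2 were 1.5-fold or more lower, and 25 stayed within that range. Of all 17270 genes measured, 8.9% were higher and 15.1% lower by the same rule, so the higher share among the members is near this background and the lower share is under it. With 5 CPM added to both levels, which shrinks the ratios of sparse genes, none of the 3 was called higher, and the log2 ratio was 0.50 for Fgf1, 0.19 for Fgf3 and 0.18 for Fgfr4. The median log2 ratio of knockout to wild-type was 0.22 over the measured members and 0.04 over all genes. Calls depended on the annotated span of a gene: of genes under 10 kb 9.05% were higher and 23% lower, of those from 10 to 100 kb 8.81% and 13.3%, and of longer ones 8.8% and 7.68%. Of the 6 members under 10 kb 1 was higher (Fgf3) and 2 were lower (Spry1 and Spry2), and of the 5 members of 100 kb or more none was called.

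**Figure D1:**
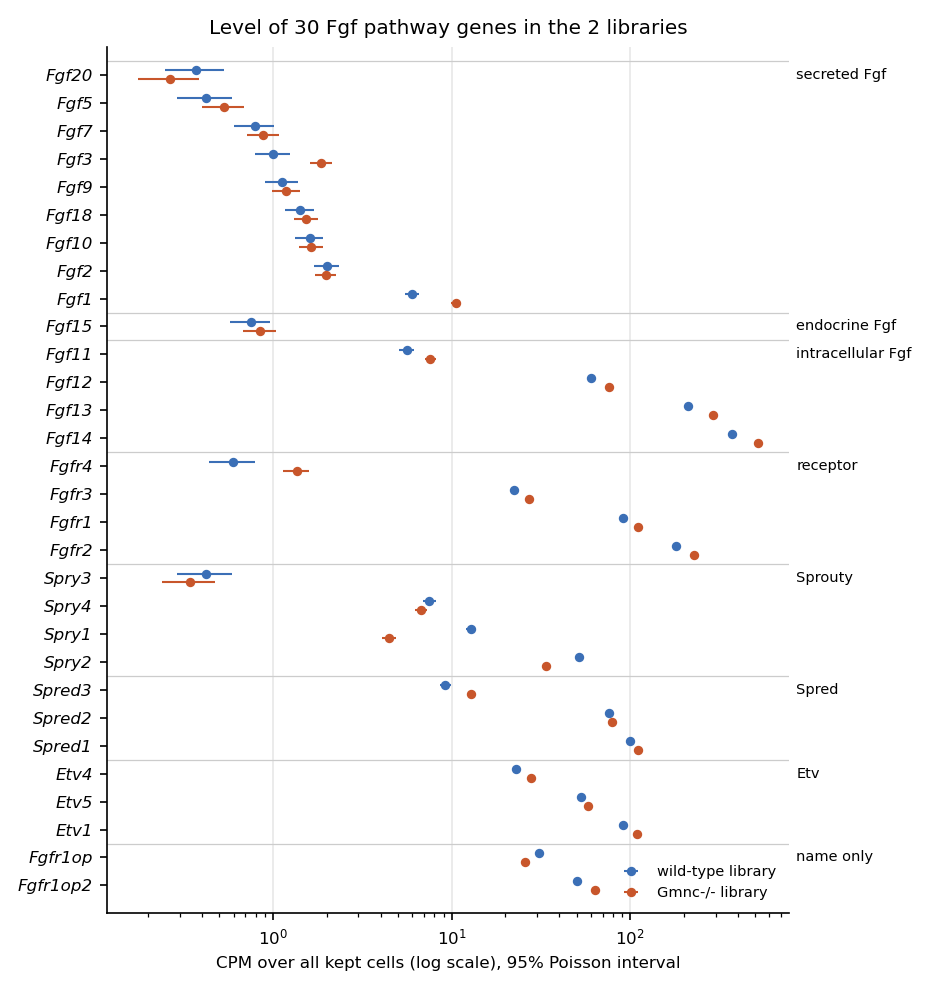
Level of the 30 measured members in CPM over all kept cells, on a log axis, with 95% Poisson intervals, in the wild-type (blue) and the Gmnc-/- (orange) library. Fgf1, Fgf3 and Fgfr4 lie higher in the knockout library, Spry1 and Spry2 lower, and the other 25 pairs of points are less than 1.5-fold apart.

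Among the secreted ligands, 9 of 15 were measured, 2 of these were higher in the knockout library and none was lower. Fgf1, an acidic ligand that binds all of the receptors (ENSMUSG00000036585, chromosome 18 of mm10, 38838673 to 38929472), was at 5.99 CPM in wild-type and 10.6 CPM in knockout cells, a ratio of 1.77 (1.58 to 1.97). Its main source was astroglia-like cells, with 56.4% of its UMIs in wild-type and 54.4% in knockout cells. There it stood at 13.3 CPM (11.7 to 14.9) and 23.5 CPM (21.7 to 25.5), and the 2 intervals did not overlap. Excitatory neuron-like cells also had more in the knockout library, 14.4 against 7.54 CPM, a ratio of 1.91 (1.51 to 2.44). In oligodendrocyte lineage-like cells the ratio was 1.57, but its interval of 0.90 to 2.84 included 1. Interneuron-like cells had 16 and 22 UMIs, or 2.67 and 1.76 CPM of Fgf1, a ratio of 0.662 (0.332 to 1.35), and they were the 1 lower of the 6 neural classes with 20 or more UMIs. Fgf1 was higher in 13 of the 14 clusters with at least 20 of its UMIs, and 7 of these intervals lay above 1. No share of all genes was taken over these clusters, but 31.7% of 11072 genes were higher in all 7 neural classes. The exception for Fgf1 was interneuron-like cluster 17 at 13.5 and 11.4 CPM. Taken alone, female-pattern cells gave a ratio of 1.67 and male-pattern cells likewise 1.67; by the same rule 8.31% of all genes were higher and 15.2% lower in female-pattern cells, and 10.3% and 10.6% in male-pattern cells.

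Fgf3 (ENSMUSG00000031074), a ligand best known from the inner ear, was a sparse gene at 1.003 and 1.86 CPM, or 79 and 197 UMIs, a ratio of 1.86 (1.42 to 2.45). It was found mainly in GABAergic cells. Striatal-like cells had 9.3 CPM in wild-type and 10.8 CPM in knockout cells, a ratio of 1.16 whose interval (0.70 to 1.97) included 1. Within that class cluster 13, which is led by Six3 and Zfhx3, had 18.7 and 16.9 CPM of Fgf3. Interneuron-like cells had 4.83 and 7.94 CPM, a ratio of 1.64 (1.08 to 2.58), and GABAergic progenitor-like cells 1.69 and 1.65 CPM. Excitatory neuron-like and astroglia-like cells stayed at or under 0.65 CPM in both libraries, and in intermediate progenitor-like cells no UMI was seen. In male-pattern cells the ratio over all cells was 1.25 (0.70 to 2.37), inside the range, against 1.65 (1.18 to 2.33) in female-pattern cells.

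Of the neural classes, excitatory neuron-like cells had the highest levels of Fgf9 and Fgf10 in both libraries. Fgf10 (ENSMUSG00000021732), a ligand of the Fgfr2 splice form of epithelia, was 1.5-fold or more lower in that class, at 5.84 CPM (wild-type) and 3.18 CPM (knockout), a ratio of 0.545 (0.383 to 0.774). Of all genes measured in that class 7.21% were as much lower and 7.28% as much higher. The class is a mixture whose make-up differed between libraries. Cluster 15, with high Rorb, Ldb2 and Bcl11b, gave 32.7% of wild-type UMIs of the class but 16.6% of knockout UMIs. Within cluster 15 Fgf10 was at 14.1 and 12.5 CPM, a ratio of 0.887 (0.581 to 1.34), within the fold. In cluster 2 it was at 4.53 and 1.46 CPM on 12 and 10 UMIs (ratio 0.323, 0.125 to 0.816). The part of the mixture in the class ratio was not tested. Fgf9 followed the same layout: 3.73 and 2.59 CPM over the class, but 9.68 and 9.56 CPM within cluster 15. Over all cells both ligands were level, Fgf9 at 1.12 and 1.18 CPM and Fgf10 at 1.60 and 1.64 CPM. Fgf5 was likewise highest in excitatory neuron-like cells, at 1.3 and 1.39 CPM.

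**Figure D2:**
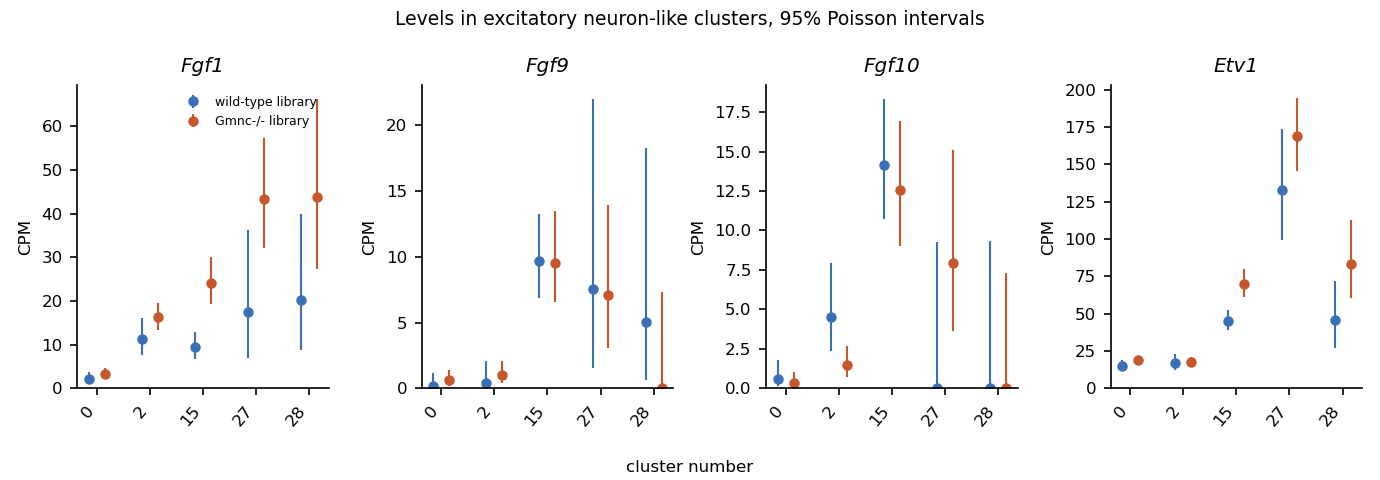
Level of Fgf1, Fgf9, Fgf10 and Etv1 in CPM in the 5 excitatory neuron-like clusters, with 95% Poisson intervals, in the wild-type (blue) and Gmnc-/- (orange) library. Fgf9 and Fgf10 peak in cluster 15 with overlapping intervals, Fgf1 lies higher in the knockout library in each cluster, and Etv1 is highest in cluster 27.

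Fgf2, the basic ligand long used to grow neural progenitors in culture, was level over all cells at 1.99 and 1.97 CPM. Astroglia-like cells held 66.2% and 66.8% of its UMIs, at 5.18 and 5.38 CPM. Meningeal fibroblast-like cells, of which there were 142 and 162, had 10.5 and 17.1 CPM of Fgf2 on 19 and 18 UMIs, with overlapping intervals. Its antisense transcript Fgf2os gave 1 and 7 UMIs, and without a stated strand rule their reads cannot be told apart from those of Fgf2. Fgf7, a ligand of mesenchyme in many organs, was at 1.54 and 2.36 CPM in astroglia-like cells, a ratio of 1.53 that counts as higher although its interval (0.98 to 2.44) included 1. Fgf18 was at 2.29 and 2.05 CPM in astroglia-like and 1.95 and 2.09 CPM in excitatory neuron-like cells, and choroid plexus-like cells had 11.3 and 18.1 CPM from 6 UMIs each. Fgf20 was the sparsest measured ligand, at 0.368 and 0.265 CPM, with no class above 7 UMIs.

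Of the endocrine ligands, which travel in the blood and need Klotho proteins, only Fgf15 was measured. It was at 0.749 and 0.842 CPM over all cells, and 81.4% of its wild-type and 89.9% of its knockout UMIs were in astroglia-like cells, at 2.39 and 3.1 CPM (ratio 1.29, 0.894 to 1.89). Of the 48 and 80 Fgf15 UMIs there, 40 and 57 were in cluster 1, at 5.06 and 5.24 CPM. The ligands below the minimum were Fgf4, Fgf6, Fgf8, Fgf16, Fgf17, Fgf22, Fgf21 and Fgf23. Fgf8, the patterning ligand of the early rostral forebrain, gave 8 wild-type and 3 knockout UMIs, Fgf17 2 and 9, and Fgf6 gave 0 in both. No difference in these genes was detectable at this depth.

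The intracellular Fgf proteins, Fgf11 to Fgf14, are not secreted and bind sodium channels and microtubules of neurons rather than the receptors. All 4 were measured and all stayed within 1.5-fold over all cells, with each somewhat higher in the knockout library. Under the stricter filter Fgf14 passed the fold at a log2 ratio of 0.64. In male-pattern cells alone Fgf12 passed it at a ratio of 1.55 (1.42 to 1.69), where 10.3% of all genes were 1.5-fold or more higher. Fgf14 was at 371 and 518 CPM (ratio 1.40, 1.38 to 1.42) and Fgf13 at 211 and 290 CPM (1.38, 1.35 to 1.40). Both were highest in striatal-like cells, Fgf14 at 990 and 1221 CPM and Fgf13 at 473 and 521 CPM, although interneuron-like cells came near for Fgf13 at 401 and 501 CPM. Each was higher in all 7 neural classes compared, as were 31.7% of the 11072 genes with 20 or more UMIs in each of those classes. These genes are very long, from 506 kb for Fgf13 to 699 kb for Fgf14, and the median log2 ratio of all genes spanning 100 kb or more was 0.23. Within the 7 neural classes the ratio ran from 1.10 to 1.30 for Fgf13 and from 1.04 to 1.39 for Fgf14. No neural class was above the ratio of its gene over all cells. The part of class make-up in the ratios over all cells was not tested. Fgf12 was highest in interneuron-like cells, at 145 and 168 CPM. It passed the fold in intermediate progenitor-like cells, at 9.04 and 14.1 CPM (1.56, 1.10 to 2.26), where 13.2% of all genes were 1.5-fold or more higher.

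Fgf11, a shorter gene of 5.79 kb, was at 5.58 and 7.61 CPM over all cells. Its ratio stood on opposite sides of 1 in 2 GABAergic classes. GABAergic progenitor-like cells had 4.37 CPM (31 UMIs, wild-type) and 7.45 CPM (72 UMIs, knockout), a ratio of 1.71 (1.10 to 2.69). Striatal-like cells had 13.3 CPM (33 UMIs) and 7.83 CPM (40 UMIs), a ratio of 0.586 (0.361 to 0.960). By 1.5-fold or more, 9.99% of all genes were higher in GABAergic progenitor-like and 5.23% lower in striatal-like cells. By the same rule, of genes under 10 kb in striatal-like cells 6.92% were higher and 12.5% lower. The call in GABAergic progenitor-like cells was lost in female-pattern cells alone and with 5 CPM added to both levels, where no member was called in that class. In striatal-like cells the calls among members fell from 3 to 1 under each of these settings. With 5 CPM added, Fgf11 was within the fold there too. The difference between the 2 ratios was not tested.

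All 4 receptors were measured, and Fgfr4 alone passed the fold over all cells. Fgfr1, Fgfr2 and Fgfr3 are the receptors of neural tissue, and Fgfr4 is better known from liver and muscle. Fgfr4 (ENSMUSG00000005320) was at 0.596 CPM (0.438 to 0.793) and 1.35 CPM (1.14 to 1.59), from 47 and 143 UMIs, a ratio of 2.27 (1.62 to 3.22). Its highest class was GABAergic progenitor-like, at 1.41 and 3.62 CPM (2.57, 1.25 to 5.82), followed by excitatory neuron-like cells at 0.811 and 1.79 CPM (2.21, 1.07 to 4.99). Both values of Fgfr4 are under the minimum of 50 UMIs, with 10 and 35 UMIs in the first class and 10 and 36 in the other. Within the former it was concentrated in cluster 22, a cluster led by replication genes, at 4.12 and 11.1 CPM on 4 and 19 UMIs of Fgfr4, and that ratio's interval (0.894 to 10.9) included 1. Fgfr4 was higher in the 3 neural classes with 20 or more UMIs, and the interval lay above 1 in 2 of them.

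Fgfr3 (ENSMUSG00000054252), the receptor of astroglia and ventricular progenitors, was found mainly in 1 class: astroglia-like cells held 82.1% of its wild-type and 80.9% of its knockout UMIs. There it was at 72.0 CPM (68.4 to 75.8) and 89.6 CPM (86.0 to 93.3), a ratio of 1.24 (1.16 to 1.33). The highest cluster was 7, which is led by Aqp4, with Fgfr3 at 128 and 167 CPM, then the dividing cluster 9 at 75.3 and 86.3 CPM. Cluster 1, the largest of the class, had 38.4 and 55.7 CPM. The direction was the same in all 7 neural classes, as for 31.7% of the 11072 genes with 20 or more UMIs in each. The fold was past 1.5 at low levels in excitatory neuron-like (3.49 and 6.12 CPM, ratio 1.75, 1.23 to 2.54), intermediate progenitor-like (5.7 and 10.4 CPM, 1.83, 1.18 to 2.91) and interneuron-like cells (2.17 and 3.29 CPM, 1.52, 0.798 to 3.09). In these classes, in that order, 7.28%, 13.2% and 6.04% of all genes were 1.5-fold or more higher. In striatal-like cells Fgfr3 was under the minimum of 50 UMIs, with 2 and 33 UMIs, or 0.809 and 6.46 CPM (7.98, 2.04 to 68.7). After thinning every cell to 2000 UMIs, which left out 39 and 191 astroglia-like cells, an Fgfr3 UMI was held by 12.4% (wild-type) and 15.4% (knockout) of the rest, against 40.8% and 36.8% unthinned. The median depth of the class was 9341 and 5957 UMIs. In erythroid-like cells, which should lack Fgfr3 and had a median of 4304 and 3378.5 UMIs, the thinned shares were 0 of 240 cells and 0.461%. If a count of 0 is taken to allow up to 3 counts, a rule of thumb and not the exact interval, the former allows a share of up to 1.25%.

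Fgfr1 and Fgfr2 were broad. Fgfr1 was at 90.5 and 110 CPM over all cells and highest in astroglia-like cells, at 156 and 191 CPM (1.22, 1.17 to 1.28), with interneuron-like cells lowest of the neural classes at 26.7 and 34.7 CPM. Fgfr2 was at 181 and 228 CPM over all cells. Its leading class was interneuron-like in the wild-type library, at 277 against 247 CPM in astroglia-like cells, and astroglia-like in the knockout library, at 306 against 266 CPM. Fgfr2 was higher in 5 of 7 neural classes with intervals above 1 in all 5, and lower in interneuron-like (0.959, 0.904 to 1.02) and striatal-like cells (0.918, 0.832 to 1.012), where both intervals included 1. None of these ratios reached 1.5.

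Sprouty proteins hold back signalling from receptor to kinase and are themselves switched on by it. The 4 genes differed in direction: Spry1 and Spry2 were lower in the knockout library, Spry4 was level and Spry3 was sparse. Spry1 and Spry2 are each short genes, of 4.65 and 4.87 kb, and their promoters are shown because these are the 2 members called lower. Sequences are from RefSeq on GRCm38.p6, from 250 bases before the transcription start to 50 after it, 5′ to 3′ on the gene's strand. Spry1 lies at chr3:37639697-37639996 on the plus strand and Spry2 at chr14:105896770-105897069 on the minus strand, and capitals mark a match to CCGGAA, the core that ETS factors such as Etv4 and Etv5 bind, on either strand.
Spry1: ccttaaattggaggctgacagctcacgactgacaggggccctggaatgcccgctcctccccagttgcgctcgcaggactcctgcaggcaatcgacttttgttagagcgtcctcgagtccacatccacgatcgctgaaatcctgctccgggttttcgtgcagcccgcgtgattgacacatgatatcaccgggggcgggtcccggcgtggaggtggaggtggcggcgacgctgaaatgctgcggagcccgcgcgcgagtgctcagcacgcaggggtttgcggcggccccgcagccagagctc
Spry2: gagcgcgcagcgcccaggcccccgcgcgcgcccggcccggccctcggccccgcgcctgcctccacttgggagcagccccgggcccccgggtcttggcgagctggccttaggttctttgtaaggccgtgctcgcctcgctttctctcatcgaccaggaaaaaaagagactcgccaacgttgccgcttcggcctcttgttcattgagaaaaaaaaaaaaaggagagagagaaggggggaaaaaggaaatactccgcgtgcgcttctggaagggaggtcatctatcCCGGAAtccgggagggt
Spry2 had 1 match, 33 bases after the start, and Spry1 had none in this window. The motif was in 14.9% of 32851 promoters of the same length and in 5 of the 38 promoters found for 28 of the members. The other motif searched on both strands, TGACGTCA, the cyclic AMP response element, was in 1.79% of all promoters and in 0 of the 38. Both Etv5 promoters also lacked CCGGAA.

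Spry1 (ENSMUSG00000037211, chromosome 3 of mm10, 37639947 to 37644598, plus strand) had the largest fold among the measured members. It was at 12.8 CPM (12.1 to 13.7) in wild-type and 4.44 CPM (4.04 to 4.86) in knockout cells, 2.89-fold lower (2.59 to 3.24). The interval of the knockout level lay wholly under that of the wild-type. In astroglia-like cells Spry1 was at 17.9 CPM (16.1 to 19.8) and 5.49 CPM (4.63 to 6.48), 3.25-fold lower (2.67 to 3.98). That class held 35.5% of wild-type and 30.3% of knockout Spry1 UMIs. In oligodendrocyte lineage-like cells it was at 36.6 CPM (31.0 to 43.1) and 17.7 CPM (14.5 to 21.4), 2.07-fold lower (1.60 to 2.68). Excitatory neuron-like cells were near the floor, at 2.51 and 1.89 CPM, and their interval included 1. Of all genes 5.16% were 1.5-fold or more lower in astroglia-like and 5.16% in oligodendrocyte lineage-like cells. Among genes spanning under 10 kb, such as Spry1, 7.81% were higher and 12.8% lower in astroglia-like cells, and 6.9% and 12.8% in oligodendrocyte lineage-like cells.

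Spry1 had the same direction in each class or cluster with enough UMIs. It was lower in all 9 named classes with at least 20 of its UMIs, where 3.76% of the 825 genes with that many such classes were lower in each, and 5 of the 9 intervals lay under 1. It was lower in all 15 clusters with that many UMIs, where 2.07% of 193 genes were, and 10 of those intervals lay under 1. Classes and clusters come from the same 2 libraries and are not replicates. Vascular cells, where the levels were highest, had the same order: endothelial-like cells had 66.9 and 35.4 CPM (ratio 0.529, 0.405 to 0.685) and mural-like cells, with 45 and 48 cells, 117 and 62.5 CPM (0.536, 0.226 to 1.14). Choroid plexus-like cells had 49.2 and 15.1 CPM on 26 and 5 UMIs. Among astroglia-like clusters the Aqp4-led cluster 7 had 36.2 CPM (wild-type) and 8.29 CPM (knockout), 4.36-fold lower, and the dividing cluster 9 had 20.05 and 7.54 CPM of Spry1. Cluster 21, led by Gdf10 and Hopx, had 27.5 and 11.9 CPM, and cluster 1 only 2.78 and 1.29 CPM. In the oligodendrocyte lineage, Spry1 was at 55.7 and 29.7 CPM in the Pdgfra- and Sox10-positive cluster 11 and at 10.1 and 3.28 CPM in the Egfr-positive cluster 16. After thinning to 2000 UMIs, a Spry1 UMI was held by 3.44% (2.66% to 4.39%) of astroglia-like cells in the wild-type library and by 0.855% (0.582% to 1.21%) in the knockout library, against 14.03% and 3.22% unthinned. Erythroid-like cells had 0 of 240 and 0.23%.

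**Figure D3:**
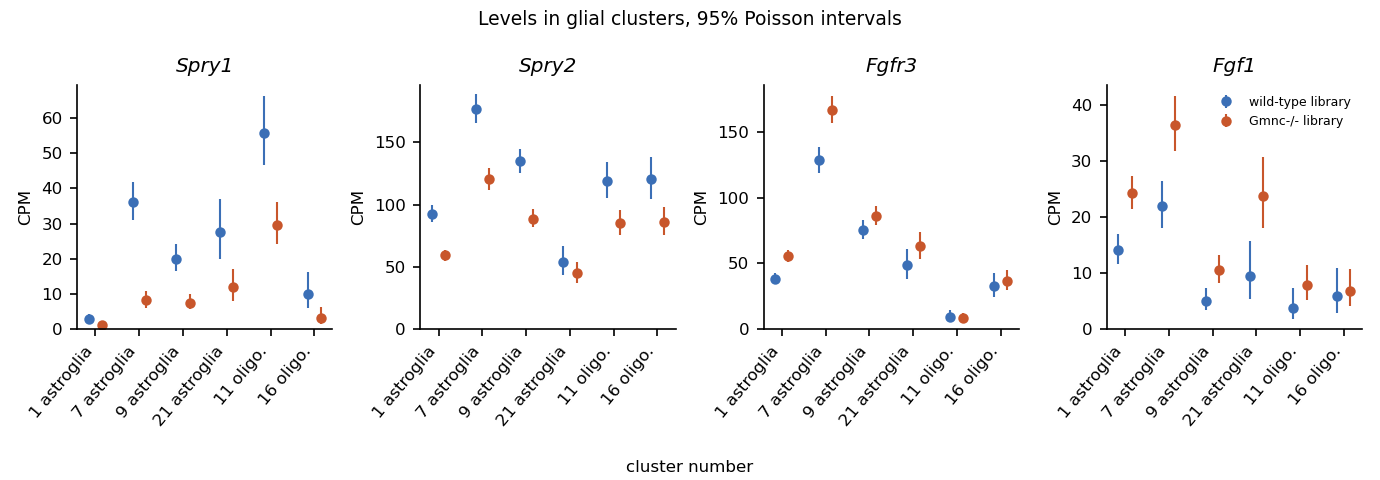
Level of Spry1, Spry2, Fgfr3 and Fgf1 in CPM in the 4 astroglia-like and the 2 oligodendrocyte lineage-like clusters, with 95% Poisson intervals, in the wild-type (blue) and Gmnc-/- (orange) library. Spry1 and Spry2 lie lower in the knockout library in each of the 6 clusters, while Fgf1 lies higher in each and Fgfr3 in all but cluster 11.

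Spry2 (ENSMUSG00000022114) had a ratio nearer to 1. It was at 51.9 CPM (50.3 to 53.5) and 33.8 CPM (32.7 to 34.9), 1.54-fold lower (1.47 to 1.61). Astroglia-like cells, with 60.2% of its wild-type UMIs, had 123 CPM (118 to 128) and 79.5 CPM (76.1 to 83.0), and oligodendrocyte lineage-like cells 120 and 85.7 CPM (ratio 0.716, 0.631 to 0.812). Striatal-like cells passed the fold at 27.9 and 14.5 CPM (0.519, 0.369 to 0.731). The ratio was under 1 in all 7 neural classes, as for 15.1% of the 11072 genes with 20 or more UMIs in each, and 6 of the 7 intervals lay under 1. The exception was intermediate progenitor-like cells at 0.779 (0.596 to 1.02). Among all 11 named classes with 20 or more Spry2 UMIs 10 were lower, and mural-like cells were higher at 1.52 (0.565 to 3.93). Of 28 clusters 26 were lower and 2 higher, and no share of all genes was taken over these clusters. With 5 CPM added to both levels the log2 ratio over all cells was -0.55 and Spry2 was no longer called. Thinned shares of astroglia-like cells with a Spry2 UMI were 21.2% and 14.5%, against 1.25% and 1.15% of erythroid-like cells.

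Cells of the 2 sexes were unequally represented, so both genes were also compared within each sex pattern. Spry1 was lower in female-pattern cells, at 13.05 and 3.87 CPM (ratio 0.297, 0.252 to 0.348), and in male-pattern cells, at 13.1 and 5.51 CPM (0.419, 0.337 to 0.522). Spry2 passed the fold in female-pattern cells, at 55.6 and 33.7 CPM (0.605, 0.570 to 0.642), but not in male-pattern cells, at 48.1 and 38.3 CPM (0.795, 0.721 to 0.878). The knockout library was lower in both patterns. Its mitochondrial share over all barcodes and its median depth over all kept cells were also lower. By class, median depth was higher in the knockout library in interneuron-like (2504 and 3249 UMIs) and striatal-like cells (2421 and 3009 UMIs). The part of mitochondrial share and depth in these results was not tested.

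Spry4 was found mainly in glia and vessels and was not called in either direction. It was at 7.5 and 6.75 CPM over all cells (0.899, 0.805 to 1.005) and at 11.8 CPM in astroglia-like cells of both libraries (1.003, 0.844 to 1.19). Oligodendrocyte lineage-like cells had 36.4 and 44.1 CPM (1.21, 0.988 to 1.49), the opposite side of 1 from Spry1 in the same cells. In endothelial-like cells Spry4 was at 24.4 and 16.8 CPM (0.688, 0.456 to 1.02) and in mural-like cells at 106 and 97.2 CPM. Over all cells its ratio was 0.790 (0.682 to 0.913) in female-pattern and 1.30 (1.014 to 1.67) in male-pattern cells. Spry3, annotated here on an unplaced scaffold, gave 33 and 36 UMIs, with at most 7 in any class of a library.

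Spred proteins, relatives of Sprouty that act on Ras through neurofibromin, all stayed within 1.5-fold over all cells. Spred1 was at 99.4 and 110 CPM, highest in oligodendrocyte lineage-like cells at 164 and 183 CPM and next in astroglia-like cells at 140 and 168 CPM. Spred2 was at 76.5 and 78.8 CPM and varied little among the neuronal classes, with intermediate progenitor-like cells lowest of the neural classes at 35.4 and 35.5 CPM. Spred3 was at 9.21 and 12.8 CPM (1.39, 1.27 to 1.53) and was highest in oligodendrocyte lineage-like cells, at 26.4 and 38.7 CPM (1.46, 1.16 to 1.86). It counted as higher in striatal-like cells, at 4.85 and 8.02 CPM on 12 and 41 UMIs, with an interval (0.852 to 3.45) that included 1.

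Etv4 and Etv5 are ETS factors that Fgf signalling switches on, and neither was lower in astroglia-like or oligodendrocyte lineage-like cells, where Spry1 and Spry2 were. Etv4 (ENSMUSG00000017724) was at 23.0 and 27.8 CPM over all cells (1.21, 1.14 to 1.28), and astroglia-like cells held 77.8% and 76.5% of its UMIs. There it was at 70.2 CPM (66.6 to 74.0) and 87.1 CPM (83.5 to 90.7), a ratio of 1.24 (1.16 to 1.33). Etv5 (ENSMUSG00000013089) was at 117 CPM (112 to 122) and 137 CPM (133 to 142) in the same class (1.17, 1.11 to 1.23) and at 133 and 159 CPM in oligodendrocyte lineage-like cells (1.19, 1.07 to 1.33). In both genes the knockout interval lay above that of the wild-type in astroglia-like cells, without reaching 1.5-fold. Within cluster 7, where Spry1 was 4.36-fold lower, Etv4 was at 110 and 132 CPM and Etv5 at 129 and 168 CPM. Thinned shares of astroglia-like cells with a UMI were 12.5% and 14.98% for Etv4 and 20.8% and 23.0% for Etv5.

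Part of these differences depended on the scale. Median-of-ratios scaling moved the median of all genes by a log2 of 0.17 in astroglia-like and intermediate progenitor-like, 0.14 in GABAergic progenitor-like, 0.12 in oligodendrocyte lineage-like and 0.43 in erythroid-like cells. In astroglia-like cells the median log2 ratio was 0.18 over all 13988 genes measured and 0.31 over the 23 members measured. Relative to that median Etv4, Etv5 and Fgfr3 lay slightly above, Spry4 below, and Spry1 and Spry2 further below than their CPM ratios. Within astroglia-like cells 2 of these 23 members were higher (Fgf1 and Fgf7) and 2 lower (Spry1 and Spry2), beside 11.3% and 5.16% of all genes.

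**Figure D4:**
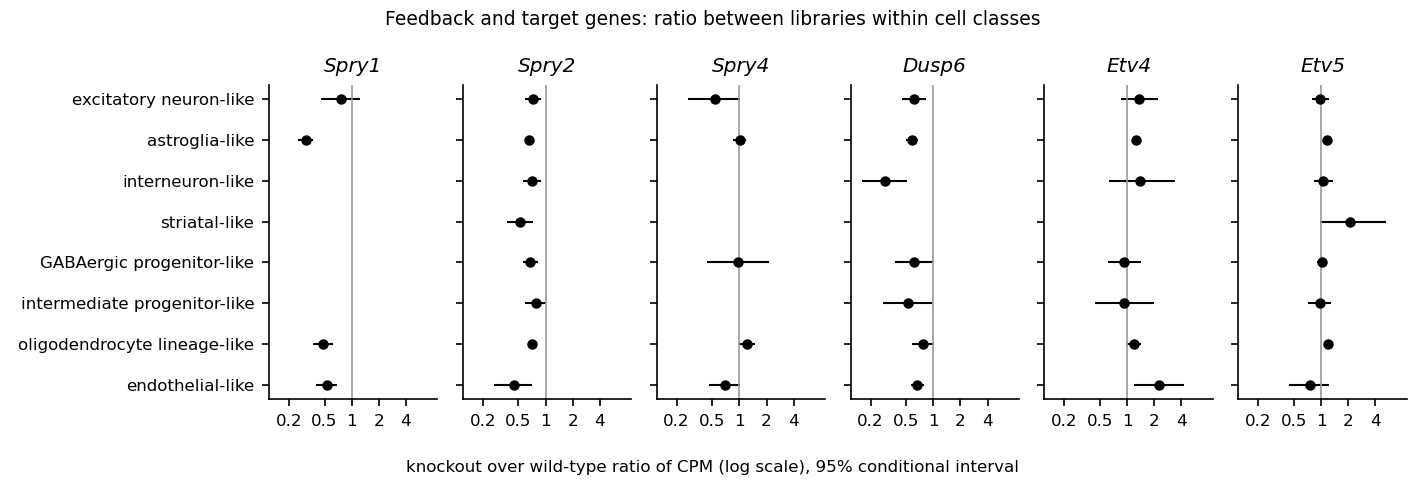
Ratio of CPM in the knockout to the wild-type library, on a log axis, for the feedback and target genes Spry1, Spry2, Spry4, Dusp6, Etv4 and Etv5 in the 7 neural classes compared and in endothelial-like cells, with 95% intervals; a class with under 20 UMIs has no point. Spry1, Spry2 and Dusp6 lie left of 1 in each class plotted. Etv4 and Etv5 lie on both sides of 1 and right of it in astroglia-like cells. Dusp4 and Dusp5 are not drawn.

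Etv1 marks other cells. It was at 90.8 and 109 CPM over all cells and highest in interneuron-like cells, at 251 and 247 CPM (0.983, 0.924 to 1.05), and in GABAergic progenitor-like cells, at 195 and 221 CPM. The Sp8-led interneuron-like cluster 4 had 389 and 388 CPM of Etv1. Among excitatory neuron-like clusters it peaked in cluster 27, which had high Tle4, Foxp2 and Sox5, at 133 and 169 CPM, and cluster 15 had 45.4 and 70.2 CPM of Etv1. Border macrophage-like cells, 171 and 164 in number, also held Etv1, at 164 and 208 CPM.

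Across the 7 neural classes the layout of the members was shared by both libraries: 25 of the 30 measured members had their highest level in the same class, although sparse members such as Spry3 and Fgf20 rest on a few UMIs there. Astroglia-like cells were the highest class for 10 members (wild-type) and 9 (knockout), among them Fgf1, Fgf2, Fgf15, Fgfr1, Fgfr3 and Etv4. Oligodendrocyte lineage-like cells were highest for 8 in each, among them Spry1, Spry4, Spred1, Spred3 and Etv5. Excitatory neuron-like cells led for Fgf5, Fgf9 and Fgf10 and striatal-like cells for Fgf3, Fgf13 and Fgf14. The class changed between libraries for Fgf11, Fgf18, Fgf20, Fgfr2 and Spry2.

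**Figure D5:**
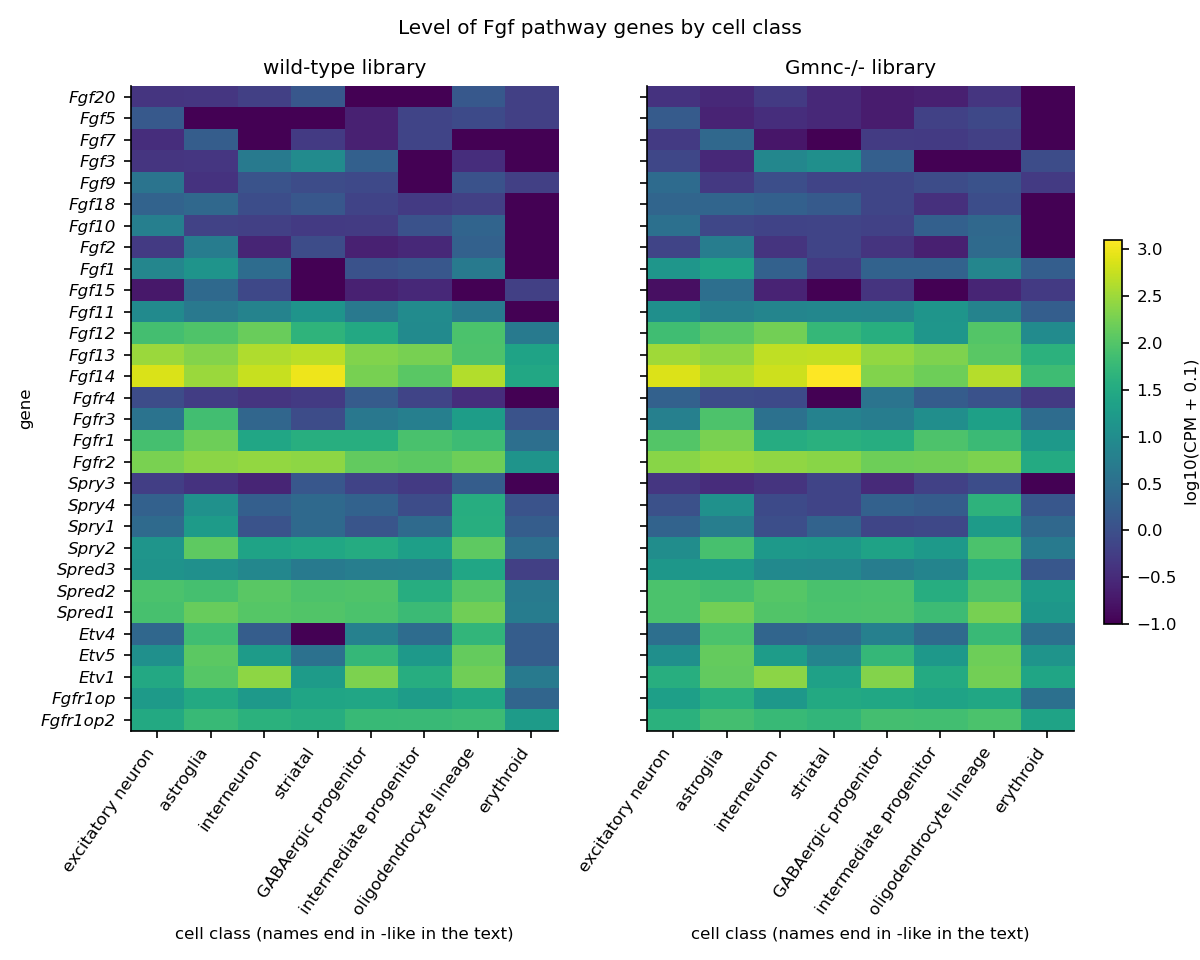
Level of the 30 measured members as log10(CPM + 0.1), in the 8 compared classes of the wild-type (left) and the Gmnc-/- library (right); each row is to be read across classes. Fgfr3, Etv4 and Spry2 are bright in the glial columns, Etv1 in the interneuron and GABAergic progenitor columns, and Fgf13 and Fgf14 in the neuronal ones.

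Within the other classes few members passed the fold, and counts this small are given beside the shares of all genes without a reading. Excitatory neuron-like cells had 2 higher and 1 lower of 21 measured (7.28% of all genes higher, 7.21% lower), interneuron-like cells 2 higher of 16 (6.04% of all genes higher, 5.43% lower), and intermediate progenitor-like cells 2 higher of 15 (13.2% and 5.7%). Striatal-like cells had 1 higher and 2 lower of 14 (7.15% and 5.23%), GABAergic progenitor-like cells 1 higher of 16 (9.99% and 5.06%), and oligodendrocyte lineage-like cells 1 higher and 1 lower of 19 (10% and 5.16%). Erythroid-like cells had 5 higher of 6, namely Etv1, Fgf13, Fgf14, Fgfr2 and Spred2, but 66.8% of all genes measured in them were as much higher and 3.15% as much lower. In these red blood cell precursors Fgf14 was at 29.0 and 67.3 CPM and Etv1 at 4.58 and 25.6 CPM. Free RNA from other cells can give such UMIs, and its part in the neural classes was not tested.

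The other genes of the pathway were read from 3 lists, over all cells. Of 20 signal relay genes, from adaptors to kinases, none was higher and Frs3, an adaptor of the receptors, was lower at a ratio of 0.458. Of 27 coreceptor and heparan sulfate genes 26 were measured, 4 were higher and 3 lower. The higher ones were Flrt1 (2.04), a membrane protein of the receptor complex, Ndst1 (1.503), a heparan sulfate sulfotransferase, and the glypicans Gpc1 (1.63) and Gpc2 (1.54). The lower ones were Fgfbp1 (0.334), a carrier of ligands, and the proteoglycans Gpc3 (0.624) and Sdc4 (0.561). Of 17 other feedback and target genes Dusp4 was higher (1.51), and Dusp6 (0.428), Fosl2 (0.541), Myc (0.627) and Phlda1 (0.548) were lower. Beside these counts stand the 8.9% of all genes higher and 15.1% lower, and nothing particular to a list is read from them. The medians of the 3 lists were log2 ratios of 0.22, 0.05 and -0.18.

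Dusp6, the phosphatase that removes phosphate from Erk and is a standard readout of Fgf signalling, was lower in the neural classes. It was at 18.6 and 10.8 CPM in astroglia-like cells (0.579, 0.494 to 0.678), 7.54 and 4.58 CPM in excitatory neuron-like cells (0.607, 0.450 to 0.818) and 133 and 88.5 CPM in endothelial-like cells (0.663, 0.559 to 0.783). Its ratio was under 1 in all 6 neural classes with 20 or more UMIs, as for 11.6% of 997 genes. Over all 11 named classes with that many Dusp6 UMIs it was lower in 9 and higher in 2, up to 1.26, with neither of the latter intervals above 1. Other phosphatases of the list went the other way. Dusp4 was higher in all 7 neural classes, as were 31.7% of 11072 genes, and 3 of its intervals lay above 1. Dusp5 was higher in all 5 neural classes with 20 or more of its UMIs, with 1 interval above 1. Il17rd, another feedback gene, was lower in 4 and higher in 3 neural classes. Phlda1 was lower in all 7 neural classes and in all 13 named classes with that many UMIs, where 2.78% of 1979 genes were. Some genes lower over all cells were level or higher within a class: Sdc4 was at 23.4 and 22.2 CPM and Fosl2 at 2.59 and 2.63 CPM within astroglia-like cells, and Fgfbp1 was found in endothelial-like cells at 29.98 and 38.1 CPM. Other classes differed. Over the named classes with 20 or more UMIs, Fosl2 was lower in 5 and higher in 1. Sdc4 was lower in 3, with 2 intervals under 1, and higher in 6, with none above 1. Fgfbp1 was lower in 1 (0.336, interval under 1) and higher in 1 (1.27, interval including 1). Endothelial-like cells made up 2.11% of cells in one library (wild-type) and 0.816% in the other, and the part of that share was not tested. Among 3 immediate early genes of the same list, named after their values were seen, Egr1 was at 406 and 478 CPM, Fos at 729 and 750 CPM and Ier2 at 175 and 153 CPM in astroglia-like cells, so none of them passed the fold there. Over the 7 neural classes Ier2 was lower in 7, Fos in 4 and Egr1 in 2. Of the same list, Myc was lower in 7 and Fosl1 in 6 of these classes. Among 11072 genes 15.1% were lower in all 7.

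Of the members that share only the name, Fgfr1op2 was at 50.2 and 63.8 CPM and higher in all 14 named classes compared over both libraries, as were 19.2% of 3352 genes. Fgfr1op, a centrosome and cilium gene, was at 30.9 and 25.7 CPM (0.833, 0.788 to 0.880). Ependymal-like cells, the multiciliated lining of the ventricles, numbered 131 among wild-type and 0 among knockout cells and held 29.4% of the wild-type UMIs of Fgfr1op, at 291 CPM (270 to 313). In astroglia-like cells, by comparison, Fgfr1op was at 30.8 and 38.5 CPM (1.25, 1.13 to 1.38), the opposite side of 1 from its ratio over all cells.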

How the data were processed

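The deposited matrices hold UMI counts per gene and cell barcode, which the authors made with Cell Ranger 7.1.0 and mm10, per the submitters' processing notes; whether counting used strand is not given in the sources used here. Each library was a pool of 4 animals, and the 2 libraries held 88905819 and 155482657 UMIs. Barcodes with at least 1000 UMIs and under 10% mitochondrial UMIs were kept, and doublets were marked in each library with Scrublet, as run in scanpy 1.11.5, and removed. Cells were clustered without the members (2000 variable genes, 30 principal components from scikit-learn 1.9.0, 15 neighbours, leidenalg 0.10.2 at resolution 1) and named from marker lists. These names are rebuilt and may differ from the study's. Female-pattern and male-pattern cells were split by sex-linked genes.

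For each class of a library, the counts of a gene were added up and set against all UMIs there (CPM). Poisson, conditional ratio and Clopper-Pearson intervals were exact (SciPy 1.17.1, NumPy 2.4.6), at 95%. A gene was measured at 50 UMIs over both libraries and called at 1.5-fold. With 1 library per group no test was made. The ratio, call and interval were run on simulated Poisson sums with known folds. These sums hold no spread between animals or libraries and no difference in cell make-up, so the run checks the arithmetic alone. Positions came from GENCODE annotation of mm10 for 27722 of 28001 features, and promoters from RefSeq on GRCm38.p6. Named genes were all members, Gmnc, and genes of 3 pathway lists past 1.5-fold over all cells with an interval that left out 1; values within classes of other list genes were chosen after they were seen. The members and lists were chosen with earlier results of these data known. Alternatives were another scaling, filters, minimum, added CPM, resolution, doublets kept, members kept in the clustering, and either sex pattern alone. Figures were drawn with matplotlib 3.10.9.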

Additional observations from a re-analysis of the deposited data

Results flagged for a closer look

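Fgf11, an intracellular Fgf protein of neurons, stood on opposite sides of 1 in 2 related classes. The ratio of knockout to wild-type was 1.71 in GABAergic progenitor-like cells and 0.586 in striatal-like cells. In female-pattern cells alone, and with 5 CPM added to both levels, no member was called in GABAergic progenitor-like cells, so the first of these was lost. Calls in striatal-like cells fell from 3 to 1 under each setting, and with 5 CPM added the second was lost as well. Each value rests on 1 library per genotype, and the difference between the classes was not tested.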

How the results depend on the processing

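Over all cells 3 members were higher and 2 lower, and the lists had 1 (signal relay), 7 (coreceptor) and 5 (other feedback) genes called. Calls among members numbered 3 in excitatory neuron-like, 4 in astroglia-like, 2 in interneuron-like, 3 in striatal-like, 1 in GABAergic progenitor-like, 2 in intermediate progenitor-like, 2 in oligodendrocyte lineage-like and 5 in erythroid-like cells. Female-pattern cells alone gave 2 signal relay calls, and 1 striatal-like, 0 GABAergic progenitor-like, 1 oligodendrocyte lineage-like and 1 erythroid-like call. Male-pattern cells alone gave 1 member lower, 0 signal relay and 3 other feedback calls, with 4 in GABAergic progenitor-like and 0 in erythroid-like cells. Median-of-ratios scaling gave 2 signal relay, 1 interneuron-like, 2 GABAergic progenitor-like and 1 intermediate progenitor-like call. With 5 CPM added, which shrinks sparse genes, there were 0 members higher and 1 lower, 0, 3 and 2 list calls, 1 excitatory neuron-like, 0 interneuron-like, 1 striatal-like, 0 GABAergic progenitor-like, 0 intermediate progenitor-like and 1 oligodendrocyte lineage-like call. A minimum of 10 UMIs, which lets in more genes, gave 5 members higher, and 7 excitatory neuron-like, 8 astroglia-like, 6 interneuron-like, 6 striatal-like, 4 GABAergic progenitor-like, 7 intermediate progenitor-like and 12 erythroid-like calls. The looser filter gave 5 excitatory neuron-like and 2 GABAergic progenitor-like calls. The stricter one gave 5 excitatory neuron-like, 0 interneuron-like, 2 GABAergic progenitor-like, 4 intermediate progenitor-like and 4 oligodendrocyte lineage-like calls. With doublets kept there were 1 interneuron-like, 5 intermediate progenitor-like, 4 oligodendrocyte lineage-like and 1 erythroid-like call, and resolution 2 gave 1 intermediate progenitor-like call. Unthinned shares of astroglia-like cells with a UMI were 40.8% and 36.8% for Fgfr3, 58.6% and 50.9% for Etv5 and 59.8% and 36.8% for Spry2, against 12.4% and 15.4%, 20.8% and 23.0%, and 21.2% and 14.5% thinned, so the order of the libraries for Fgfr3 and Etv5 turned with depth. Apart from that and the 2 settings named, the cause of these shifts was not tested.

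Keeping the members in the clustering left all 10 counts within 1.5 times. Over 8 alternatives the log2 ratio over all cells ranged from -1.75 to -0.92 for Spry1, -0.72 to -0.33 for Spry2, 0.50 to 0.82 for Fgf1, 0.19 to 0.95 for Fgf3 and 0.18 to 1.32 for Fgfr4, and none of these 5 changed sign. No paired analysis was possible because there was 1 library per genotype. Members with under 50 UMIs fell under the minimum set here and were not called. Where a ratio over all cells could be taken for them, its interval included 1.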
